A study of Rattus norvegicus with 6 samples.

Results

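Of 129867 probed sites on chromosomes 1 to 20 of the rat whose input DNA gave a clear signal on all 6 arrays, 8707 (6.70%) gave no Cy5 signal well above background on any array. They are called Cy5-dim sites here. The series measured DNA methylation by methylated DNA immunoprecipitation on tiling arrays (MeDIP-chip), with the immunoprecipitated DNA labelled with Cy5 and input DNA with Cy3. The hearts came from Sprague-Dawley (SD) rats at day 1, newborn per the labels, with the tissue given as cardiac muscle. All mothers were anesthetized with ether and dosed through a tracheal catheter during pregnancy, with saline for the 3 control arrays and with a suspension of fine airborne particles (PM2.5) for the 3 PM2.5 arrays. The sources used here state neither the dose nor the sex of the newborns. The labels call the 3 arrays of a group biological replicates without naming litters, so p-values measure only the spread between these samples.

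In MeDIP an antibody against 5-methylcytosine pulls down DNA fragments, and the capture of a fragment depends on how many methylated CpG sites it holds. Fragments with few CpG sites, or with unmethylated ones, are captured little, and a probe inside them then shows input signal with little immunoprecipitate. A probe can also be dim because it binds its target weakly, which lowers both channels.

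The Cy5-dim sites were chosen by the detection flags of the scanner software: input well above background on all 6 arrays, immunoprecipitate not well above background on all 6 arrays. The counts and Cy5 levels that follow therefore describe the choice and are not tests of it. Positions are on the rat build rn4, as the arrays give them. No probe sequence is printed and no gene is named, because the files used here hold neither and the gene tables at hand are of another build.

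The absence of a clear Cy5 signal recurred from array to array. Among the input-detected sites, 105869 (81.5%) had Cy5 well above background on all 6 arrays, and 6363 (4.90%) had it on 5 arrays. Cy5 showed on 1 array at 2362 sites, on 2 arrays at 1781 sites, on 3 arrays at 2133 sites and on 4 arrays at 2652 sites. When Cy5 was required to be absent on 5 arrays, with input still required on all 6, and was read on the remaining array, it was not well above background at 89.8% to 99.4% of the chosen sites, against 8.93% to 14.9% of all input-detected sites on those arrays. Sites chosen by Cy5 on the 3 control arrays were not well above background at 92.0%, 94.7% and 92.9% on PM2.5 replicates 1, 2 and 3. Sites chosen by Cy5 on the PM2.5 arrays were so at 84.0%, 95.1% and 90.1% on control replicates 1, 2 and 3. The plot of detection by number of arrays shows the whole distribution.

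**Figure D1:**
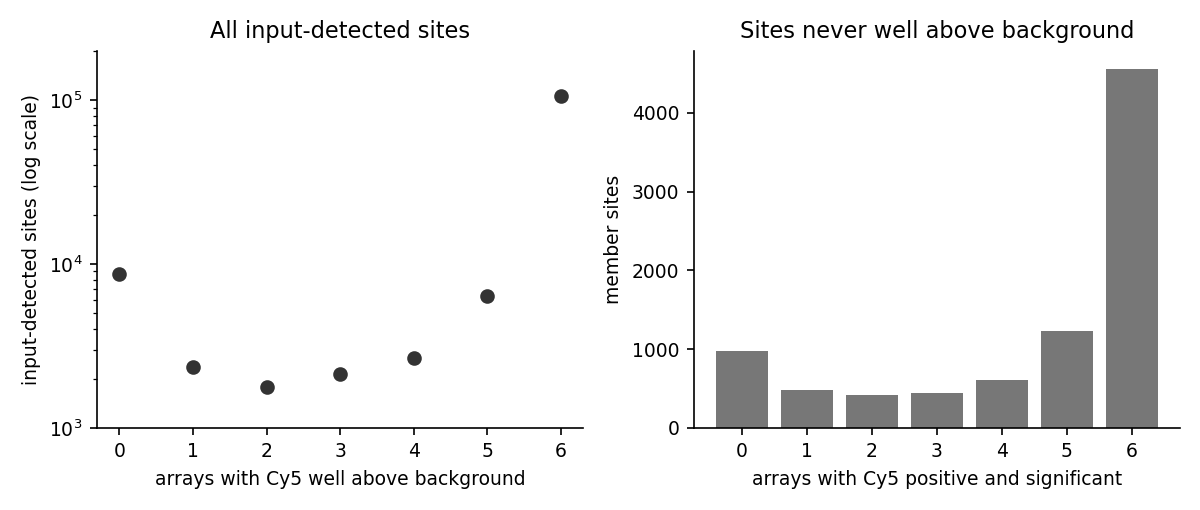
Left, number of input-detected sites (log scale) by the number of arrays, 0 to 6, on which Cy5 was well above background; right, the Cy5-dim sites by the number of arrays on which Cy5 passed the weaker flag, positive and significant. The left panel is lowest at 2 arrays (1781 sites), and the tallest bar at right is 6 arrays (4559 sites).

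Most of the sites carried some Cy5 signal. The scanner software has a weaker flag, which marks a signal as positive and significant against the local background. It was set for Cy5 on all 6 arrays at 4559 of the 8707 sites (52.4%) and on no array at 979 sites (11.2%). At least 5 arrays carried it at 5790 sites (66.5%). On single arrays it was set at 69.6% to 76.9% of the sites and at 14.8% to 19.3% of negative control spots. The sites are therefore named by their rule and not as free of signal. Whether the weak Cy5 came from captured DNA was not tested.

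Against spots that target no rat sequence the same was seen. Each array held 810 negative control spots, whose median Cy5 after background subtraction lay between -0.868 and 0.0291 scanner units. At the Cy5-dim sites the median was 16.2, 17.9 and 14.8 units on control replicates 1, 2 and 3, and 20.5, 24.4 and 27.1 units on PM2.5 replicates 1, 2 and 3. Between 95.2% and 97.7% of the sites exceeded the median negative control spot of their array. The upper tail of the negative spots reached into the same range, with a 95th percentile of 29.9 to 46.5 units. The share of Cy5-dim sites above that percentile was 1.45% to 3.15% on control arrays and 11.4% to 28.5% on PM2.5 arrays. All other input-detected sites had a median of 191 to 352 units. Sites with Cy5 on exactly 1 array lay just outside the rule, with a median of 30.9 to 51.6 units over the 6 arrays.

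**Figure D2:**
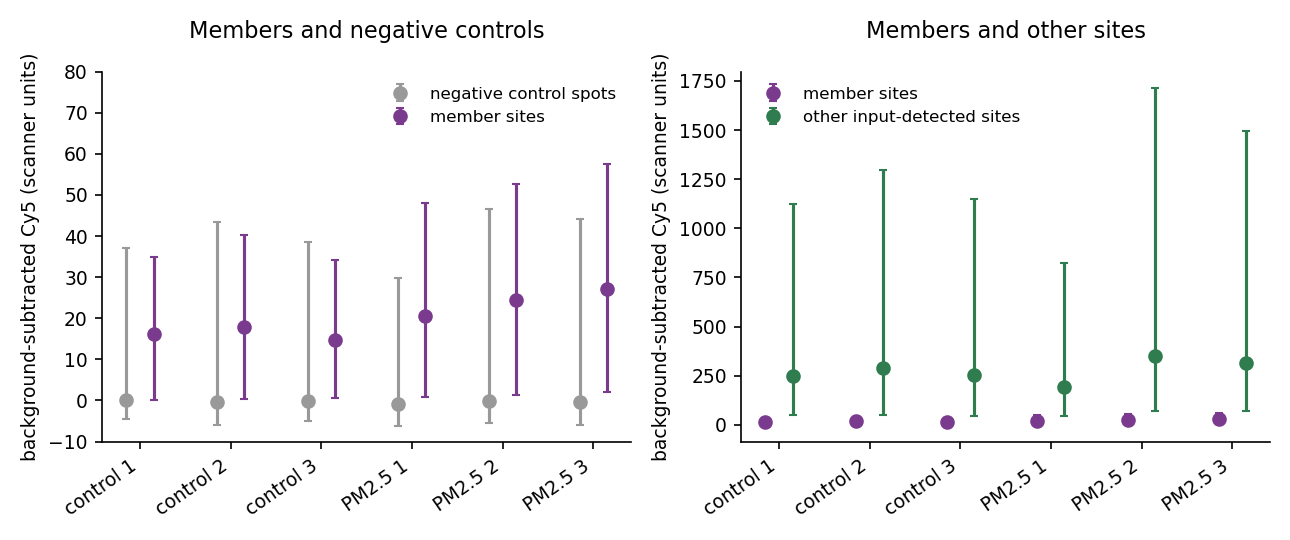
Background-subtracted Cy5 in scanner units on each array (point, median; bar, 5th to 95th percentile over sites or spots). Left, Cy5-dim (member) sites against the 810 negative control spots; right, the same sites on the scale of the other input-detected sites. Dim sites sit above the negative controls in the median (14.8 to 27.1 units) and far below other sites (191 to 352 units).

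Input was also lower at the Cy5-dim sites than on the rest of the array. The median background-subtracted Cy3 was 53.8, 132 and 135.0 units on control replicates 1, 2 and 3 against 147, 312 and 308 units at other input-detected sites. It was 71.0, 87.4 and 122 units on PM2.5 replicates 1, 2 and 3 against 188, 292 and 354 units. Only 254 of the Cy5-dim sites (2.92%) had Cy3 above the array median on all 6 arrays, against 41.9% of the other input-detected sites. Whether the low Cy3 had a part in the Cy5 calls was not tested.

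The rule did not use probe length, and the Cy5-dim sites differed from other sites in it. Probes on this array are 45 to 60 nt long. The probe had a median length of 57 nt at Cy5-dim sites and 45 nt at other input-detected sites, and 81.3% against 17.5% were longer than 50 nt. Of the 75090 input-detected probes of 45 nt, 360 (0.479%) were Cy5-dim. The share rose with each added base to 8.55% at 50 nt, 20.8% at 55 nt and 44.2% at 60 nt, where 3187 of 7203 probes were Cy5-dim. Probes of 60 nt made up 5.55% of input-detected sites and 36.6% of the Cy5-dim ones. On each array taken singly, Cy5 was not well above background at 0.928% to 3.05% of 45 nt probes and at 50.9% to 66.6% of 60 nt probes. Base and CpG content were not examined here, and their part in this was not tested.

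**Figure D3:**
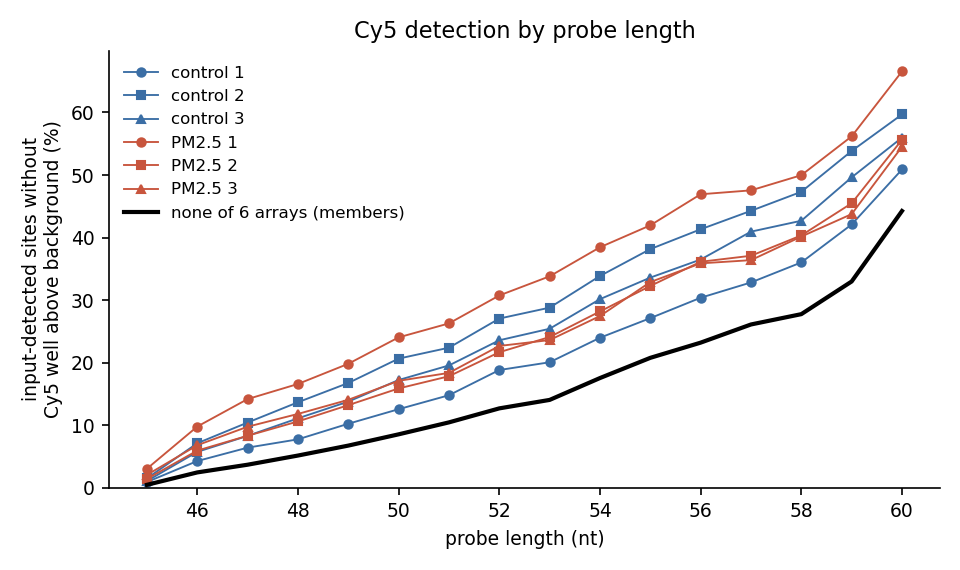
Percentage of input-detected sites without Cy5 well above background by probe length (nt), on each array (blue, control; red, PM2.5; circle, square and triangle, replicates 1 to 3) and on none of the 6 arrays (black, the Cy5-dim sites). All lines climb with length, the black one from 0.479% at 45 nt to 44.2% at 60 nt.

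Length also went with the input channel. The mean over arrays of the median Cy3, relative to the array median on the log2 scale, was 0.44 at other sites of 45 nt and -0.77 at other sites of 60 nt. At Cy5-dim sites it was -1.49 for 45 nt and -1.33 for 60 nt. Their Cy5 on the same scale was -3.01 for 45 nt and -4.28 for 60 nt. Cy5-dim probes of 45 nt were thus less dim in Cy5 than those of 60 nt and no brighter in input. Cy5 at other sites fell with length too, from 0.65 for 45 nt to -1.46 for 60 nt. At the Cy5-dim sites the rule bounds Cy5 from above.

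The Cy5-dim sites were spread over all 20 chromosomes. Their share of input-detected sites ranged from 4.08% on chromosome 19 (148 sites) and 4.33% on chromosome 12 (140 sites) to 8.74% on chromosome 11 (299 sites). For comparison, the count that each chromosome's mixture of probe lengths gives at the array-wide share per length was computed. Observed over this length-based count lay between 0.909 on chromosome 12 and 1.08 on chromosome 16. Chromosome 1 held the most, with 1297 sites, 0.997 times its length-based count. These ratios describe the array and carry no test.

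All probes together form 16123 tiled regions when gaps of at most 1000 bp are joined. Cy5-dim sites lay in 5649 of the 15435 regions on chromosomes 1 to 20 with input-detected sites (36.6%). Of these 5649 regions, 4091 held a single Cy5-dim site, 1118 held 2 and 440 held 3 or more, so 4091 of the 8707 sites were the only one of their region. Regions with a Cy5-dim site had the same median number of probes, 10, as those without. Their median distance to the nearest other tiled region was 29497 bp, against 29390 bp. Their probes were longer, with a mean of 49.1 nt against 46.9 nt.

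Within regions of 6 to 20 probes the sites lay at the margins a little more often than inside. The share of input-detected probes that were Cy5-dim was 7.81% in the first and 7.09% in the last of 10 equal bins along a region, and 5.58% to 6.51% in the bins between. Margin probes were also longer, and relative to the length-based count the bins ranged from 0.947 to 1.05. In regions of over 100 probes 9.10% of input-detected sites were Cy5-dim, against 6.36% in regions of 6 to 20 probes, or 0.979 and 1.00 times the length-based count.

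Joined among themselves at gaps of at most 1000 bp, the Cy5-dim sites formed 6659 regions, of which 5147 (77.3%) were a single probe. There were 1148 regions of 2 sites, 262 of 3 and 102 of 4 or more. The 1512 regions with at least 2 sites held 40.9% of the sites and had a median span of 537 bp. The largest held 11 sites over 3641 bp, at chr1:116172520-116176160. The next held 9 sites at chr1:115332051-115335433, and regions of 8 sites lay at chr1:116183897-116188103 and at chr4:63805644-63808147. Chromosome 1 thus held 3 of these 4, all within chr1:115312109-116215045, where probes had a mean length of 54.1 nt. It also held 18444 of the 129867 input-detected sites. Since other probes can lie between joined sites, unbroken runs were shorter. There were 728 runs of at least 2 consecutive Cy5-dim probes, with 18.1% of the sites, and 92 of at least 3.

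The longest unbroken runs held 6 probes. At chr1:116174453-116175435, 6 probes with a mean length of 59.7 nt covered 983 bp. Their mean background-subtracted Cy5 was 10.0, 15.8 and 11.9 units on control replicates 1, 2 and 3 and 13.5, 18.4 and 18.1 units on PM2.5 replicates 1, 2 and 3. Their mean Cy3 ran from 61.9 to 151.4 units over the 6 arrays. The rule required clear Cy3 without clear Cy5, and these units are not scaled between the dyes, so the channels are not compared. At chr7:29094392-29095311, 6 probes had a mean Cy5 of 9.39 to 21.6 units and a mean Cy3 of 49.8 to 137 units. A run of 5 probes at chr1:48251844-48252632 had brighter input. Its mean Cy3 was 195, 500.7 and 504 units on the controls and 192, 309 and 432 units on the PM2.5 arrays, with mean Cy5 of 12.0 to 24.1 units. Runs of 4 probes at chr2:102650145-102651272 and chr4:123914128-123915056 had a mean Cy3 of 114 to 233 and of 50.8 to 128 units.

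The tiled regions with the most Cy5-dim sites were long ones. A total of 51 regions held 10 or more, 48 of them with over 100 probes, and together they held 928 sites (10.7%). The region chr1:116165050-116215045 had 52 Cy5-dim sites among 166 input-detected ones (31.3%). An equal 52 of 166 were found at chr1:115312109-115362781. Both counts exceeded the length-based ones, by factors of 1.36 and 1.35. The listed regions were ranked by their number of Cy5-dim sites, which favours such an excess. All regions of over 100 probes together had 0.979 times their length-based count. In both regions Cy5 was well above background on all arrays at other probes, 77 and 80 of them. The region chr7:29077660-29127584 followed with 37 of 170 sites (21.8%), 1.21 times the length-based count. In chr17:22069800-22160113 there were 36 of 321 sites (11.2%), 0.957 times that count. The region chr6:134339829-134439545, with 538 probes, had 33 of 421 sites (7.84%).

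The other regions in this list were on chromosomes 13 (29 sites from 110917523 and 25 from 51083238), 10 (26 from 825503), 1 (23 from 116027126) and 8 (22 from 44468685). From the first to the last of the 3 chromosome 1 regions, chr1:115312109-116215045, 174 of 627 input-detected sites (27.8%) were Cy5-dim. This was 1.21 times the length-based count, with a mean probe length of 54.1 nt, in a span set by the regions already chosen.

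In 18 tiled regions each input-detected site was Cy5-dim, other probes of the region not being counted, and 4 of these had at least 3 such sites. They were picked out after their values were seen. The one with most sites was chr4:170155237-170156706, where 4 of 9 probes had input on all arrays. The remaining 3 were chr5:141038791-141039831, chr8:41164757-41166463 and chr11:56616639-56617884.

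Clear immunoprecipitate was common next to a Cy5-dim site, but less frequent than next to other input-detected sites. Adjacent probes within 1000 bp were counted once for each Cy5-dim site beside them, giving 15513 pairs. In 51.7% of the pairs the neighbour had Cy5 well above background on all arrays, and in 10.9% it was itself Cy5-dim. In a further 19.1% it had neither input on all arrays nor Cy5 on any. Beside other input-detected sites the shares were 68.7%, 4.61% and 11.4%. At 1936 of the 6809 sites flanked on both sides (28.4%), both flanking probes had Cy5 on all 6 arrays. Among pairs whose neighbour was input-detected, the neighbour of a Cy5-dim site was Cy5-dim in 14.3%, where neighbour lengths alone would give 12.5%. Beside other sites the figures were 5.63% and 5.57%. The excess over length was thus 1.14 times next to a Cy5-dim site.

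The dip in Cy5 detection around the sites was small. Among input-detected sites that were not Cy5-dim, those within 1000 bp of a Cy5-dim site had Cy5 on a smaller share than those farther away, on 6 of 6 arrays. On control replicates 1, 2 and 3 the shares were 96.7%, 91.9% and 94.0% near against 98.0%, 94.8% and 96.2% far. On PM2.5 replicates 1, 2 and 3 they were 88.6%, 94.2% and 93.8% near against 92.2%, 96.4% and 95.8% far. The mean gap over arrays was -2.33 percentage points, and -3.56 within 300 bp. Nearby probes were longer, however, with a mean of 49.2 nt at 0 to 150 bp against 46.9 nt beyond 10000 bp. With probes of 45 nt alone, a restriction added after seeing the data, the mean gap was -0.198 percentage points, still below 0 on 6 of 6 arrays. The farther 45 nt probes had Cy5 on 97.5% to 99.6%, which leaves little room for a gap. Within 300 bp the 45 nt gap was -0.72 to -0.20 percentage points over the arrays. The median log2 ratio of Cy5 over Cy3 at 45 nt probes within 150 bp was below 0 on 6 of 6 arrays. Its lowest value was -0.097, on PM2.5 replicate 1. Beyond 10000 bp it was 0.08 to 0.31. Both kinds of site share fragments and arrays, so this is a description.

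**Figure D4:**
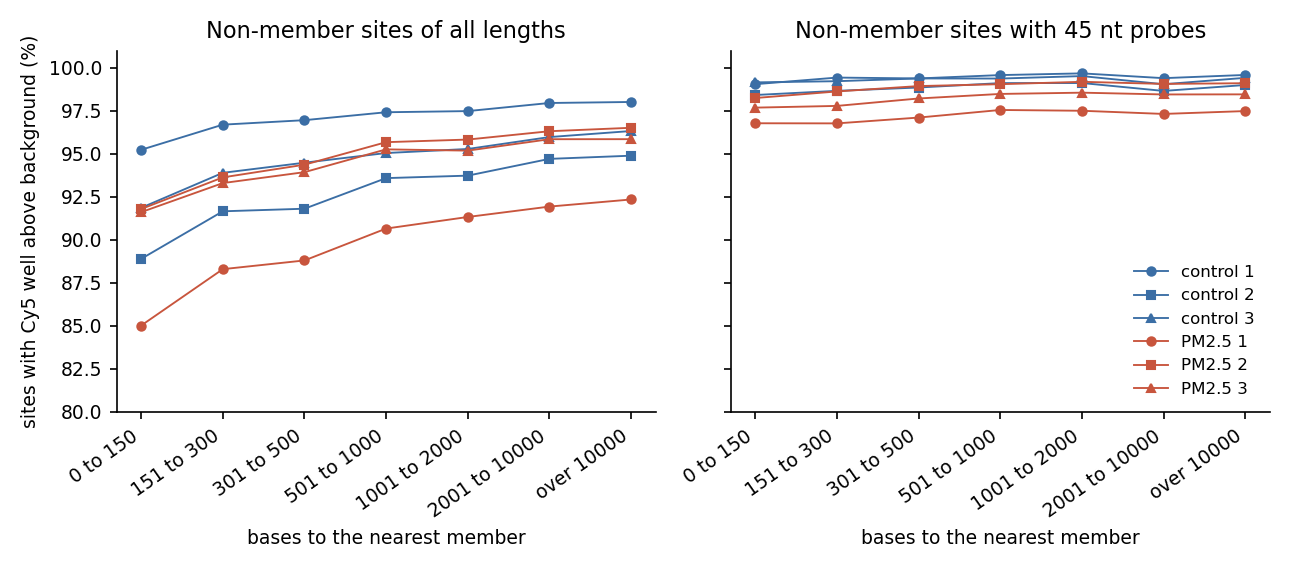
Percentage of input-detected, non-member sites with Cy5 well above background by the number of bases to the nearest Cy5-dim (member) site, on each array (blue, control; red, PM2.5; the axis starts at 80%). With all probe lengths (left) the mean over arrays is 90.7% at 0 to 150 bases and 95.7% beyond 10000; with 45 nt probes alone (right) it is 98.2% and 98.8%.

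A few Cy5-dim sites had very bright input. The brightest by its lowest array lay at chr1:115365858-115365917, with a probe of 60 nt. Its background-subtracted Cy3 was 1036, 2976 and 2704 units on control replicates 1, 2 and 3 and 960, 1801 and 2152 units on PM2.5 replicates 1, 2 and 3. Its Cy5 was 13.2, 42.7 and 20.3 units on the controls and 5.64, 57.0 and 51.6 units on the PM2.5 arrays. Processed Cy3 was thus at least 5.69 times the array median on each array, and Cy5 was positive and significant on 5 arrays without being well above background on any. On PM2.5 replicates 2 and 3 it exceeded the 95th percentile of the negative control spots, 46.5 and 44.2 units. The nearest probe had Cy5 on all 6 arrays.

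The next brightest, at chr9:112833794-112833853, had Cy3 of 1163 to 2286 units and Cy5 of 23.4 to 64.3 units. At chr20:335533-335580 Cy3 was 821 to 1666 units and Cy5 12.0 to 40.2 units, and its nearest probe had Cy5 on 0 arrays. At chr18:16243595-16243654 and chr15:5826857-5826910 the processed Cy3 was at least 3.52 and 3.07 times the array median. Bright input with dim Cy5 was therefore seen in probes of 48, 54 and 60 nt.

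The exposure groups were then set side by side in both channels. The share of input-detected sites without clear Cy5 was 8.93%, 12.3% and 10.8% on control replicates 1, 2 and 3 and 14.9%, 10.6% and 11.1% on PM2.5 replicates 1, 2 and 3. The groups overlapped. Means ± SD over 3 arrays each were 10.7% ± 1.71 for control and 12.2% ± 2.34 for PM2.5, with a two-sided exact permutation p of 0.5. With 3 arrays against 3 this test cannot go below 0.1.

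Input at the Cy5-dim sites, relative to the array median of all input-detected probes, was -1.36, -1.14 and -1.10 on the log2 scale for control replicates 1, 2 and 3, and -1.30, -1.62 and -1.43 for PM2.5 replicates 1, 2 and 3. The ranges overlapped, with a difference of -0.25 between the group means. It was -0.02 when spots marked by the scanner software as outliers or non-uniform were left out, which make up 35.8% of PM2.5 replicate 1. Control replicate 1 and PM2.5 replicate 3 were scanned on 1 day, and between them the difference was -0.07. On another day control replicates 2 and 3 and PM2.5 replicate 2 were scanned, and there it was -0.50.

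Cy5 at the same sites was -3.82, -3.87 and -3.94 for the controls against -3.07, -3.70 and -3.38 for PM2.5, and each PM2.5 array lay above each control array. The rule itself bounds these values from above, at each array's own limit of detection, so they carry no test. The 95th percentile of the sites' background-subtracted Cy5 was 47.9 to 57.5 units on the PM2.5 arrays, against 34.2 to 40.2 units on the controls. Means ± SD over 3 arrays each were -3.88 ± 0.06 for control and -3.38 ± 0.31 for PM2.5, a difference of 0.49. Within those 2 scanning days the Cy5 difference was 0.44 and 0.21, and PM2.5 replicate 1 had a scanning day of its own. It was 0.78 with marked spots left out and 0.07 with normexp background correction. Both groups were at or near background here, so these log2 differences are not read as folds.

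**Figure D5:**
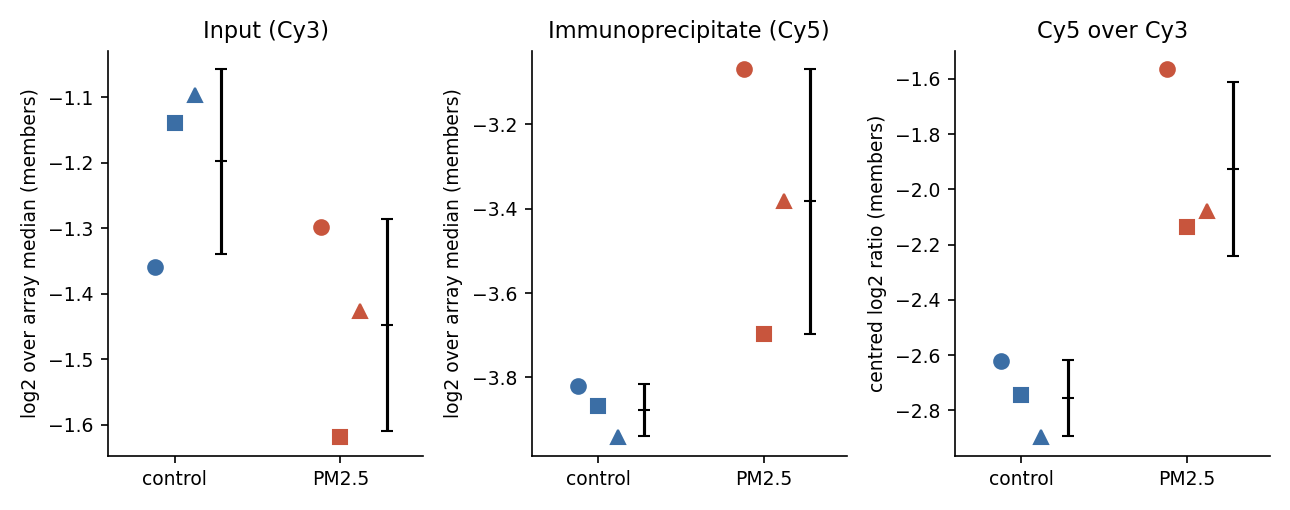
Median over the Cy5-dim (member) sites of Cy3, of Cy5 (each in log2 over the array median) and of the centred log2 ratio, by group; circles, squares and triangles are replicates 1, 2 and 3, bars the mean ± SD (n = 3). Cy3 overlaps between groups, while in Cy5 (-3.94 to -3.82 against -3.70 to -3.07) and in the ratio the PM2.5 arrays lie above the controls; axes do not start at 0.

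The log2 ratio of Cy5 over Cy3 was fitted on all probes, and for the Cy5-dim sites its outcome is given as a description, because the rule used the same signals. Its median over the sites was -2.62, -2.74 and -2.90 for the controls against -1.56, -2.14 and -2.08 for PM2.5. In the fit over 135601 tested probes, 865 of the 8707 sites (9.93%) passed with the PM2.5 ratio above control and 0 passed with it below, at a limma adjusted p under 0.05. At an unadjusted limma p under 0.05, 5676 were above and 15 below, against 19729 and 4368 of all tested probes. Over all tested probes 1.3% passed above and 0.0059% below, and nothing is read from the difference between these shares. In 8 of 16 alternative fits 0 Cy5-dim sites and 0 of all tested probes passed in limma. In these 8, 887 to 5693 sites were higher and 11 to 242 lower at an unadjusted limma p under 0.05. Over all tested probes, 7207 to 20206 were higher and 1394 to 4655 lower. Leaving out control replicate 2 or 3, or PM2.5 replicate 2 or 3, gave 0. Without PM2.5 replicate 1 there were 1549, of 3546 calls over all tested probes. Control replicates 2 and 3 share a scan identifier, taken here as a shared slide. With that slide as a random block 47 passed, of 81. With scanning day as a block 2657 passed, of 7265. The median change was 0.81 over the Cy5-dim sites and 0.05 over all probes tested.

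The 2 channels entered these ratios to a degree that depended on the centring. With marked spots left out, as in the fit, the median change relative to the array median at the 865 sites was 1.097 in Cy5 and -0.21 in Cy3 on the log2 scale. Over all Cy5-dim sites it was 0.72 and -0.05, and over all probes tested 0.20 and 0.13. With marked spots kept it was 0.81 and -0.44 at the 865 sites, 0.43 and -0.27 over all Cy5-dim sites, and 0.05 and 0.03 over all probes tested. Since Cy5 at these sites was not well above background on any array, the ratios are not read as a change in methylation, and the part of background signal in them was not tested.

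Among the sites that passed, the largest change was at chr5:108536713-108536770. Its centred ratio was -3.58, -3.70 and -3.50 on control replicates 1, 2 and 3 and -0.36, -1.35 and -0.90 on PM2.5 replicates 1, 2 and 3. Cy5 relative to the array median had a control mean of -4.57 ± 0.35 and a PM2.5 mean of -2.36 ± 1.12 (SD over 3 arrays), and Cy3 means were -0.93 ± 0.37 and -1.42 ± 0.65. At chr9:43659282-43659341 the control ratios were -4.11, -4.08 and -4.27 and the PM2.5 ratios -1.54, -1.56 and -1.68. The others named by size were chr1:86329590-86329643, chr1:119751736-119751789 and chr18:38003279-38003338, with changes of 2.34, 2.23 and 2.19. These 5 sites were picked by the size of their change among called sites, so what follows describes the choice. By the rule, their Cy5 was not well above background on any array. At each of them the groups did not overlap in the ratio. With marked spots kept or left out, mean Cy5 was higher and mean Cy3 lower in PM2.5. Each of the 5 passed in 7 to 9 of 17 settings, with the main fit counted among the 17.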

How the data were processed

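Scanner output for 6 arrays was deposited by the authors as spot intensity of each channel, made with Feature Extraction 11.0.1.1. Probe positions follow the rat build rn4. The processed intensity was background-subtracted, detrended and scaled by a linear dye factor, per the file headers. A table of log2 ratios deposited by the authors, whose smoothing is not stated in the sources used here, served as an alternative; its median at Cy5-dim sites was -1.05 to -0.77. No base sequence and no gene name was used.

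Control spots were left out and 172669 probes kept. For the fit, spots marked as non-uniform or outliers were left out (35.8% on PM2.5 replicate 1, 0.341% to 2.21% elsewhere, 0 to 5 Cy5-dim spots per array) and each array was centred on its median over input-detected probes. A probe missing on some arrays was fitted on the others. Tests used lmFit and eBayes of limma 3.58.1 in R 4.3.3 across all probes with Benjamini-Hochberg adjustment, tested on simulated data, and exact permutation over arrays for the share of sites without clear Cy5. Levels and ratios of the chosen sites are descriptions. Descriptions used pandas 2.3.3.

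Named were the 10 tiled regions with most Cy5-dim sites, the 5 longest runs (ties by span), the 5 sites of brightest input on their lowest array, and up to 5 called sites per direction by size. Members, rules and lists were chosen with earlier results of these data known. Replicate numbers were not treated as a pairing (correlations of deviations for equal numbers -0.03, 0.0858 and -0.149). Pairs scanned on the same day gave 0.194 (control 1, PM2.5 3), 0.0858 (control 2, PM2.5 2) and 0.133 (control 3, PM2.5 2). Pairs of different days gave -0.166 to 0.0203. The number of arrays limits the precision.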

Additional observations from a re-analysis of the deposited data

How the results depend on the processing

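The rule gave 8803 to 10852 sites and 6718 to 7820 joined regions with each array left out, 11069 sites with Cy5 allowed on 1 array, and 979 with the weaker Cy5 flag absent on all arrays; regions of at least 2 sites numbered 1512. The gap in Cy5 detection near the sites was -2.30 to -1.92 percentage points with each array left out, -3.56 within 300 bp and -0.198 for 45 nt probes. The Cy3 difference between groups was -0.33 to -0.16 and the Cy5 difference 0.34 to 0.65 with each array left out.

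The 865 called sites became 0 after normexp, scale or quantile normalisation and in the authors' values, with 0 calls over all tested probes too (limma). At an unadjusted limma p under 0.05, 3079, 1433, 1460 and 887 sites had the higher ratio under PM2.5, and 53, 38, 242 and 139 the lower. Over all tested probes these counts were 14619, 10059, 9061 and 7207 higher, and 4655, 2762, 3941 and 4313 lower. Without an input filter 1 site passed, of 1 call over all tested probes, and with marked spots kept 1179, of 2290. It was 482 of 912 with each array centred on probes unmarked on all arrays (chosen after seeing the data). With scanning day as a block it was 2657 of 7265. With the slide as a random block it was 47 of 81 (correlation from a moment estimate, as duplicateCorrelation returned none). With each array left out it was 0 to 1549, against 0 to 3546 over all tested probes. The cause was not tested. With the replicate block 2606 passed, of 5679 calls over all tested probes, and the Cy3 and Cy5 differences were -0.25 and 0.49. Not every array correlated best with its own number, and the numbers were not treated as a pairing. The median change over the sites was 0.10 to 0.91 in the 16 alternatives. Near-background Cy5 limits all of these.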

Other observations

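Clear input was the exception among sites without clear Cy5. On chromosomes 1 to 20, 32353 of 164271 sites had Cy5 not well above background on all 6 arrays, and 23646 of these (73.1%) lacked clear input on at least 1 array as well. On the X chromosome, which the rule leaves out, 468 of 5128 input-detected sites (9.13%) met the same flags, and on unplaced sequence 37 of 725 (5.10%).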
